A study of Arabidopsis thaliana with 7 samples.

Results

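AT2G39260 and AT5G38890 are nuclear genes of RNA decay in Arabidopsis thaliana, the first annotated as UPF2 of nonsense-mediated decay and the second as an exosome-type RNA-binding protein. Each was represented by the probe set that the platform annotation assigns to that gene alone, which gave 2 of 22746 plant probe sets, or 2 of 13356 genes with a probe set of their own, on the ATH1 array. Both genes were chosen by their log2 differences and small p-values among mRNA decay genes in an earlier comparison of sta1 with wild type on these same arrays. Their difference in that comparison is therefore described here and not tested.

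Nonsense-mediated decay removes transcripts that carry a premature stop codon. Its central factors are UPF1, UPF2 and UPF3, of which UPF2 links the other two and UPF3 connects them to the exon junction complex, a protein mark that splicing leaves on mRNA. The exosome is a ring-shaped complex that degrades or trims RNA from its 3′ end, with a cap of RNA-binding subunits on top of the ring. Both systems clear RNA that was spliced wrongly, and STA1, the gene altered in the mutant, is named in the series title as needed for splicing of mRNA precursors and for mRNA turnover.

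Total RNA of whole seedlings was hybridised to 7 arrays, 4 of the wild-type line Col-LUC, 1 of the wild-type line C24-LUC, and 2 of the mutant sta1. Col and C24 are natural strains. The labels give all samples as untreated, grown for 2 weeks at 22 °C with 16 h of light and 8 h of darkness on agar with 3% sucrose. For the sta1 samples the growth text speaks of an ice1 mutant instead, and the titles, which name sta1, were followed. The labels give no sta1 allele, no strain background for it and no number of plants per sample. Nothing says that samples came from separate cultures. The p-values therefore reflect the scatter of these particular samples, and that scatter may be technical in origin.

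Median signals ran from 207.8 to 215.7 per array, and 63.9% to 65.3% of the probe sets had a signal of at least 100. Col-LUC 1 came from the same chip lot as both sta1 arrays and from the same hybridisation session as sta1 1, and it was the wild-type array closest to them (r = 0.971 with sta1 1 across probe sets, against 0.883 to 0.925 for the other wild-type arrays). No lot is recorded for Col-LUC 4 in the files used. Of the shoot markers 2 of 5 had a probe set, the rubisco activase gene RCA and the photosystem gene PSAN. Their summed signal was 23118.2 to 26675.0 in wild type and 14216.6 to 16632.9 in sta1. The 2 markers were unlike in size of change, with log2 differences between sta1 and wild type of -2.09 for PSAN and -0.21 for RCA. Of the root markers 3 of 4 had one (PYK10, EXPA18 and EXPA7), and their sum was 10293.8 to 14437.2 in wild type and 9906.0 to 11490.2 in sta1. No probe set was assigned to a seed or floral marker alone. In whole seedlings a change in the share of a cell type and a change of RNA per cell cannot be told apart, and the part that the lower shoot markers have in any result below was not tested.

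The level of AT5G38890 was higher on both sta1 arrays than on any wild-type array. Its signal, in MAS5 units with each array scaled by the authors to a target of 500, was 503.5, 402.5, 458.8 and 399.7 on Col-LUC 1 to 4, 396.2 on C24-LUC, and 663.7 and 845.7 on sta1 1 and 2. The sta1 arrays thus lay apart from all 5 wild-type arrays, and Col-LUC 1 was the highest of these. The mean signal was 432 ± 47.5 (SD, n = 5) in wild type and 755 ± 129 (SD, n = 2) in sta1. On the log2 scale the difference was 0.80 ± 0.17 (limma SE), or 1.74-fold. The gap between the lowest sta1 and the highest wild-type array was 0.40, while the wild-type arrays spanned 0.35 and the sta1 arrays differed from each other by 0.35.

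AT2G39260 followed the same order of groups over a smaller range. Its signal was 268.4, 230.8, 211.8 and 221.0 on Col-LUC 1 to 4, 226.4 on C24-LUC, and 292.4 and 304.4 on sta1 1 and 2. Both sta1 arrays again lay above every wild-type array, with Col-LUC 1 next to them. The mean signal was 232 ± 21.7 (SD, n = 5) in wild type and 298 ± 8.49 (SD, n = 2) in sta1, a log2 difference of 0.37 ± 0.15 (limma SE), or 1.29-fold. The gap to the highest wild-type array was 0.12, less than the 0.34 that the wild-type arrays spanned. Whether the difference of AT5G38890 is larger than that of AT2G39260 was not tested.

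**Figure D1:**
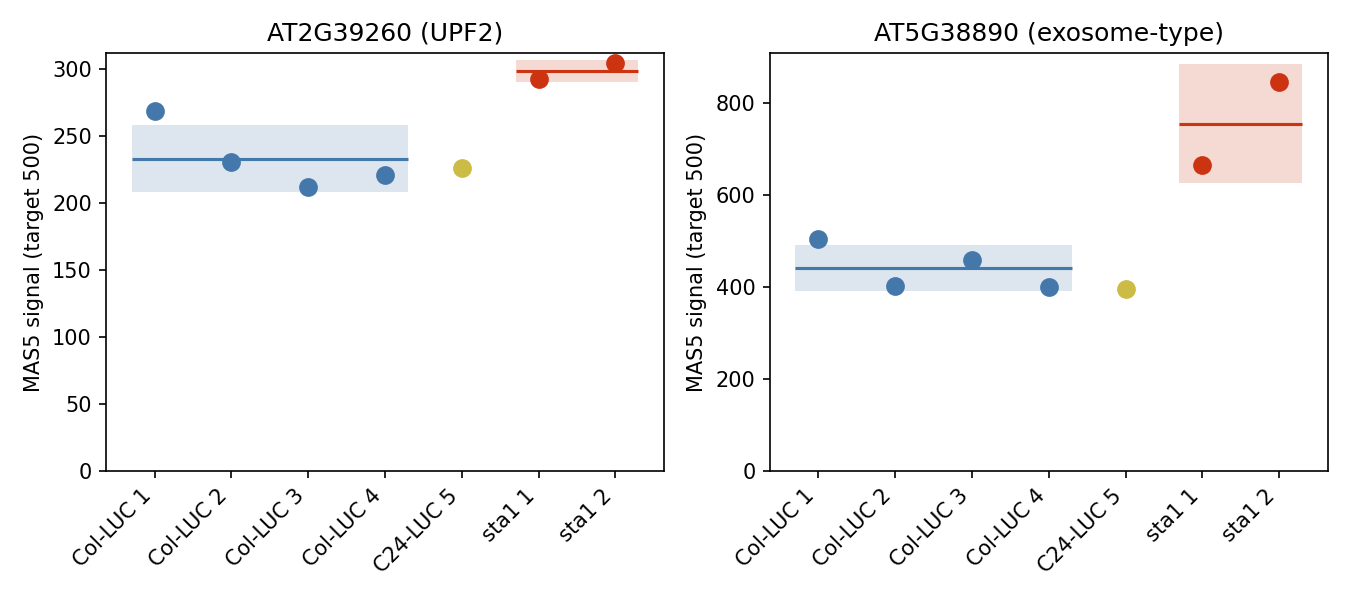
MAS5 signal of AT2G39260 (left) and AT5G38890 (right) on each of the 7 arrays, with lines at the group mean and bands of 1 SD for the 4 Col-LUC and the 2 sta1 arrays. In both panels the sta1 arrays lie highest and Col-LUC 1 is the nearest wild-type array, at 268.4 and 503.5.

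Against the whole table these differences were moderate in size. Of the 15673 probe sets that reached a signal of 100 on at least 2 arrays, AT5G38890 ranked 779th and AT2G39260 ranked 2957th from the largest rise downward. In 16.7% of them neither sta1 array fell within or under the wild-type range, and both genes belonged to this share, from which nothing is read because they were chosen on this contrast. After Benjamini-Hochberg adjustment over the whole table, limma called 0.542% higher and 0.766% lower in sta1 at a threshold of 0.05, and neither gene was among them. That call turned in 2 of the 17 alternative fits for AT5G38890 and in 1 for AT2G39260. With array weights limma called both genes higher, as it did 11.0% of all tested probe sets, and without Col-LUC 1 it called AT5G38890 higher, as it did 4.15%. Nothing is read from these calls either.

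Against Col-LUC 1 alone both differences were smaller. Within the shared session, sta1 1 minus Col-LUC 1, the log2 difference was 0.40 for AT5G38890 and 0.12 for AT2G39260, and 88.6% and 66.5% of the tested probe sets had a smaller one. Between the mean of both sta1 arrays and Col-LUC 1, which share a chip lot, it was 0.57 and 0.15. The session value also leaves out sta1 2, the higher of the sta1 arrays in both genes. Leaving Col-LUC 1 out of the fit gave 0.86 and 0.42, and leaving out sta1 1 or sta1 2 gave 0.98 or 0.63 for AT5G38890 and 0.40 or 0.34 for AT2G39260. The part that lot or session has in the differences was not tested.

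The spread within wild type is described only, since choosing genes by small p-values on these arrays favours a small spread. Over the 4 Col-LUC arrays the SD of the log2 signal was 0.15 for AT2G39260 and 0.16 for AT5G38890, against a median of 0.24 over all tested probe sets, and 22.3% and 25.8% of them had a smaller SD. Over all 5 wild-type arrays the SDs were 0.13 and 0.15, with a median of 0.27. In both genes the highest of the 4 Col-LUC values was that of Col-LUC 1.

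Setting C24-LUC against Col-LUC asked whether the natural strains used as wild type differ in the signal of these genes. Their choice used the C24-LUC array as 1 of the 5 wild-type arrays, and choosing by small p-values favours genes in which it lies close to Col-LUC, so the strain values of both genes are given with no test. The signal of AT2G39260 in C24-LUC, 226.4, lay inside the Col-LUC range of 211.8 to 268.4. The log2 difference was -0.04 ± 0.20 (SE, 1 and 4 arrays), with a 95% interval from -0.51 to 0.44. AT5G38890, at 396.2, lay just under the lowest Col-LUC array, as did 20.8% of the tested probe sets, with a difference of -0.15 ± 0.22 and an interval from -0.67 to 0.37. With 1 C24-LUC array, for which the spread was borrowed from the other groups, a strain difference within these intervals was not detectable. From the highest mean to the lowest, both genes ran from sta1 to Col-LUC to C24-LUC, and in neither did the distance from C24-LUC to the Col-LUC mean exceed the SD of the Col-LUC arrays. This strain comparison and that of sta1 share all 5 wild-type arrays.

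**Figure D2:**
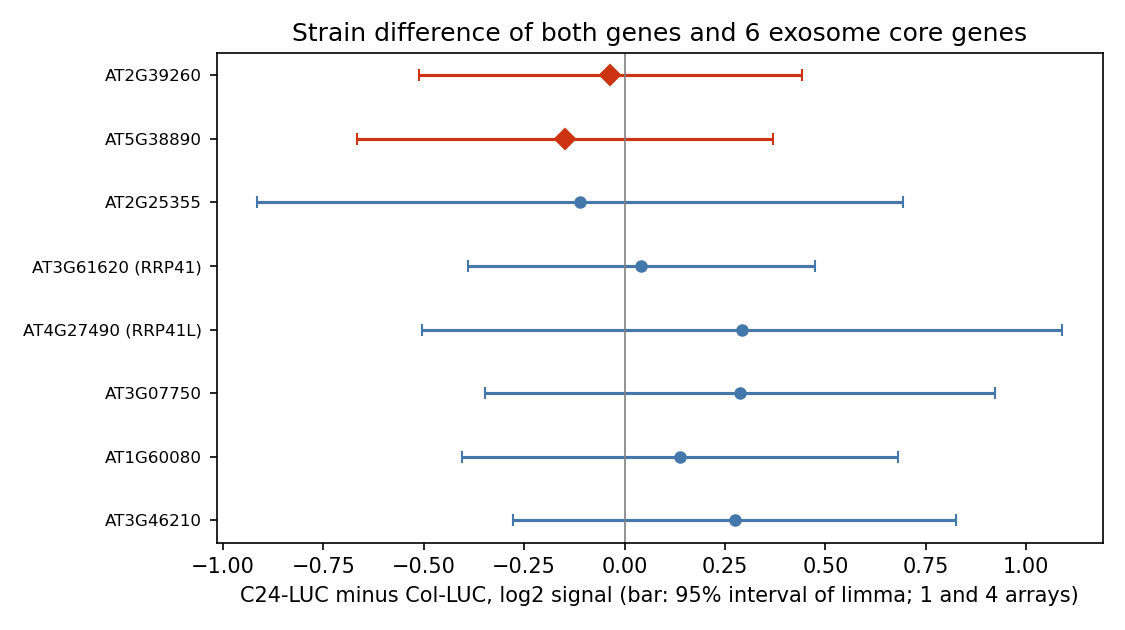
Log2 difference between the C24-LUC array and the mean of 4 Col-LUC arrays for both genes (diamonds) and 6 other exosome core genes (circles), with 95% intervals from limma. Every interval crosses 0, with AT2G39260 at -0.04 and AT5G38890 at -0.15.

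The other genes of RNA decay came from lists compiled from general knowledge of the loci, with earlier results of these data known. They held 72 further loci in 6 groups, of which 39 had a probe set of their own and 38 passed the filter on low signals. The annotation tables give symbols to only some of them, so the others are named by locus and their role by the list alone. By limma 0 of the 38 passed in either direction over all tested probe sets, where 0.542% and 0.766% of all did. At an unadjusted p under 0.05 there were 6 higher and 3 lower, against 11.6% and 11.9% of all tested probe sets. The sta1 arrays lay above every wild-type array in 11 of the 38, 6 of them in the exosome core, and below every one in 4. Of all tested probe sets 16.7% lay above and 15.6% below. The median difference of the 38 was 0.07, beside 0.01 over all probe sets.

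Among them the exosome core, the group of AT5G38890, had its tested members on 1 side. Of 12 further loci 6 had a probe set and all 6 passed the filter. In all 6 both sta1 arrays lay above every wild-type array, which held for 16.7% of the tested probe sets, and the median log2 difference was 0.63 against 0.01 over all. None passed limma over all probe sets, and 4 had an unadjusted p under 0.05 with a positive difference, where 11.6% of all tested did.

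AT3G07750 had the largest difference of these 6. Its signal was 261.8, 169.9, 232.4 and 183.7 on Col-LUC 1 to 4, 254.6 on C24-LUC, and 423.9 and 469.0 on sta1 1 and 2, so that both sta1 arrays were well clear of the wild type. The log2 difference was 1.04 ± 0.21 with a limma adjusted p of 0.0598. AT3G46210 had signals of 301.9, 224.4, 286.9 and 246.2 on Col-LUC 1 to 4, 318.1 on C24-LUC, and 425.4 and 529.3 on the sta1 arrays. Its difference was 0.80 ± 0.19 (limma adjusted p = 0.0745), close in size to that of AT5G38890, and its highest wild-type array was C24-LUC.

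AT2G25355 was the exosome core gene in which Col-LUC 1 came closest to sta1. Its signal was 388.4, 210.3, 330.8 and 251.1 on Col-LUC 1 to 4, 265.8 on C24-LUC, and 406.6 and 524.2 on the sta1 arrays, a difference of 0.71 ± 0.25 (limma adjusted p = 0.147). Between sta1 1 and Col-LUC 1 it was 0.07. AT1G60080 had signals of 184.4 to 260.0 in wild type and of 322.8 and 305.7 in sta1, a difference of 0.44 ± 0.17 (limma adjusted p = 0.180).

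RRP41L (AT4G27490) and RRP41 (AT3G61620) encode subunits of the RNase PH type that form the exosome ring. RRP41L had signals of 187.7, 117.0, 194.8 and 200.5 on Col-LUC 1 to 4, 209.6 on C24-LUC, and 228.2 and 299.6 on the sta1 arrays, a difference of 0.55 ± 0.26 (limma adjusted p = 0.237). RRP41 lay between 452.5 and 547.3 in wild type and at 596.8 and 617.6 in sta1, a difference of 0.30 ± 0.14 (limma adjusted p = 0.2375). The gap between the lowest sta1 and the highest wild-type array was 0.12 on the log2 scale in both, against 0.07 in AT2G25355, 0.23 in AT1G60080, 0.42 in AT3G46210 and 0.70 in AT3G07750.

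**Figure D3:**
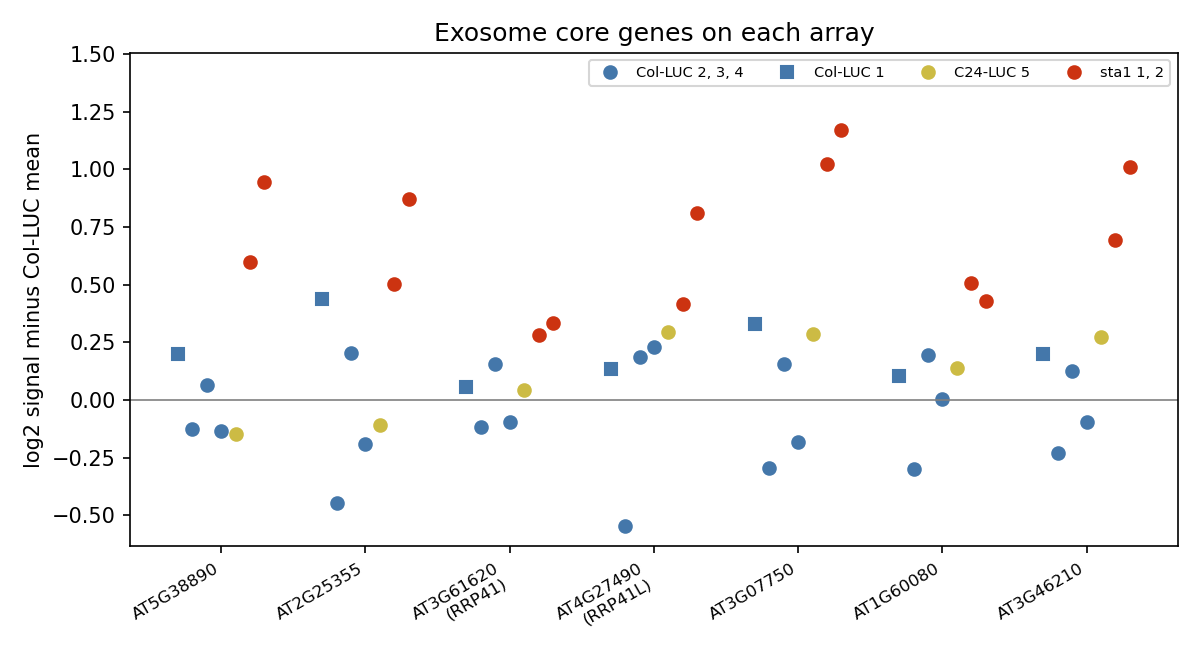
Log2 signal of AT5G38890 and 6 other exosome core genes on each array, relative to the mean of the 4 Col-LUC arrays; Col-LUC 1 is drawn as a square. In each gene both sta1 points are the highest, and in AT2G25355 the square of Col-LUC 1 is nearest to them.

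Within the shared session the differences of the exosome core genes were smaller. Their median for sta1 1 minus Col-LUC 1 was 0.34, beside 0 over all tested probe sets. That all 6 were positive follows from both sta1 arrays lying above every wild-type array, and is no further result. Against Col-LUC 1 as the array of the same chip lot, the median over both sta1 arrays was 0.42. When Col-LUC 1 was left out of the fit, limma called 2 of the 6 higher, AT3G07750 (1.10 ± 0.21; adjusted p = 0.0281) and AT3G46210 (0.83 ± 0.20; adjusted p = 0.0459), while it called 4.15% of all tested probe sets higher. In the C24-LUC comparison 0 of the 6 passed limma and 0 had an unadjusted p under 0.05. Their median there was 0.21, beside 0.03 over all tested probe sets. Over all 38 other decay genes 0 passed limma there and 1, AT5G53770, had an unadjusted p under 0.05, where 12.5% of all tested probe sets did. In that comparison limma called 0.204% of all tested probe sets higher and 1.16% lower.

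Cofactors that feed RNA to the exosome or act beside it had differences of both signs. All 9 with a probe set were tested, with a median of 0.08. Of these 0 passed limma, which called 0.542% of all tested probe sets higher and 0.766% lower. By limma 1 was higher and 1 lower at an unadjusted p under 0.05, where 11.6% and 11.9% of all tested probe sets were. AT5G53770 had the largest value, 1.26 ± 0.46 (limma adjusted p = 0.161), but its signals of 25.1 to 134.5 in wild type and 133.0 and 211.3 in sta1 overlapped and lay partly under the floor of 50. AT5G44150, at 72.4 to 160.5 in wild type, was at 177.2 and 174.4 in sta1, a difference of 0.53 ± 0.30. AT2G32415 was lower in sta1 1 and 2 than on any wild-type array, at 77.4 and 111.1 against 111.2 to 163.2, with a difference of -0.61 ± 0.24 (limma adjusted p = 0.172). The groups overlapped in the other 6, AT5G35910 (0.27), AT3G46960 (0.16), AT5G10630 (0.08), RST1 (0.07), AT1G54440 (-0.09) and AT1G76630 (-0.29), given as log2 differences.

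Among the nonsense-mediated decay factors, 3 others had a probe set and 2 of them were tested. UPF3, the partner of UPF2, had signals of 841.5, 755.1, 773.9 and 887.7 on Col-LUC 1 to 4, 925.2 on C24-LUC, and 873.1 and 723.2 on sta1 1 and 2. These groups overlapped, and the log2 difference was -0.07 ± 0.15 (limma adjusted p = 0.806). In UPF3 sta1 1 lay inside the wild-type range and sta1 2 below it, unlike AT2G39260, where both lay above it. AT1G28260 was lower on both sta1 arrays, at 114.2 and 134.0, than on all wild-type arrays, at 165.9 to 236.0. Its difference was -0.69 ± 0.20 with a limma adjusted p of 0.109. AT2G15560 did not pass the filter and had signals of 50.5 to 120.4 in wild type and of 83.5 and 53.9 in sta1.

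In the exon junction complex, the 3 tested genes overlapped between the groups, as did 10614 of all 15673 tested probe sets. Y14 (AT1G51510), a core protein of the complex, had a difference of 0.23 ± 0.14 (limma adjusted p = 0.370), AT1G15280 of 0.16 ± 0.15 and AT1G80000 of 0.03 ± 0.21. None had an unadjusted p under 0.05 in the limma fit, where 11.6% of all tested probe sets were higher and 11.9% lower.

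Genes of decapping and 5′ to 3′ decay lay near 0 as a group, with a median of -0.02 over 7 tested. By limma 0 passed, where 0.542% of all tested probe sets were called higher and 0.766% lower. At an unadjusted p under 0.05 there were 0, where 11.6% of all were higher and 11.9% lower. LSM1A and LSM1B, subunits of the ring that binds the 3′ end of deadenylated mRNA and promotes decapping, had differences of -0.15 ± 0.14 and 0.05 ± 0.14. AT4G17620 was higher in sta1 1 and 2 than on any wild-type array, at 646.4 and 632.2 against 494.7 to 613.3, with a difference of 0.25 ± 0.14. That is 1 of the 7, beside 16.7% of all tested probe sets. The other 4, AT3G61240 (0.06), AT1G79090 (-0.02), AT2G45810 (-0.14) and AT4G14990 (-0.24), overlapped.

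Deadenylation genes, whose products shorten the poly(A) tail, had a median of -0.06 over 11 tested. Of these 0 passed limma, which called 0.542% of all tested probe sets higher and 0.766% lower. At an unadjusted p under 0.05 there was 1 higher and 1 lower, where 11.6% and 11.9% of all tested probe sets were. AT3G58560, AT3G58580 and AT2G32070 were higher in sta1 1 and 2 than on any wild-type array, with differences of 0.36, 0.31 and 0.22. AT1G80780 and AT5G10960 lay below all wild-type arrays, with differences of -0.63 and -0.19. These 3 above and 2 below, of 11, stand beside 16.7% and 15.6% of all tested probe sets. In AT1G80780 the signal was 1075.5 and 1132.6 in sta1 against 1349.6 to 2050.3 in wild type, and the fit without Col-LUC 1 called it lower (-0.72 ± 0.17; limma adjusted p = 0.0432), as it did 4.72% of all tested probe sets. The remaining 6 overlapped and ran from 0.29 for AT3G20800 through 0.04 for AT5G35430, -0.06 for AT5G18230, -0.07 for AT1G02080 and -0.11 for AT5G12980 to -0.33 for AT1G15920. For AT5G35430, which has 2 probe sets, the one with the higher mean signal was used.

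**Figure D4:**
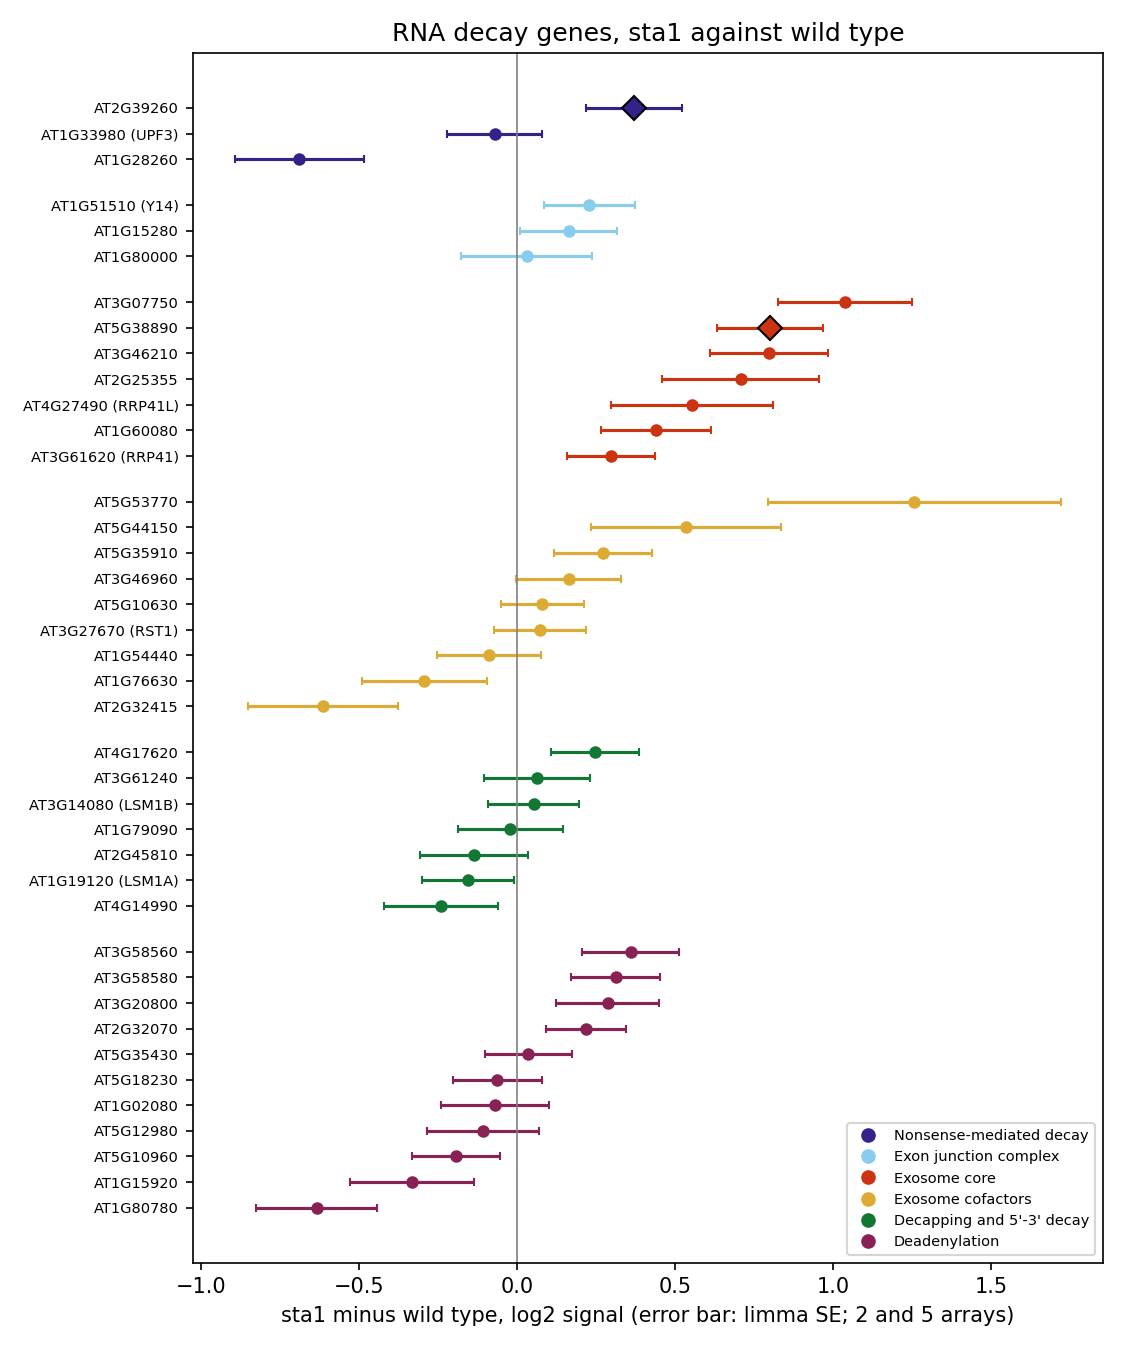
Log2 difference between 2 sta1 and 5 wild-type arrays for each tested RNA decay gene, with bars of 1 limma SE and both chosen genes as diamonds. All 7 exosome core genes lie to the right of 0, from 0.30 to 1.04, while the other groups, apart from the 3 genes of the exon junction complex (0.03 to 0.23), hold values of both signs.

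Transcripts known to be sensitive to nonsense-mediated decay in some of their splice forms were listed too, since a probe set reads all forms it matches together. Of 13 such loci 4 had a probe set, UPF3 among them. AT1G36730 was lower on both sta1 arrays, at 963.3 and 936.9, than in wild type, at 1055.1 to 1448.9, a difference of -0.46 ± 0.16 (limma adjusted p = 0.147). AT2G45670 was also lower than in all wild-type arrays (-0.48 ± 0.21, limma adjusted p = 0.207), which held for 15.6% of all tested probe sets. AT5G45430 overlapped between sta1 and wild type. It was the only gene of all these lists that passed in the C24-LUC comparison, at 246.0 against 1037.1 to 1598.4 in Col-LUC, and fell by 2.30 ± 0.25 on the log2 scale (limma adjusted p = 0.00790). There 0.204% of all tested probe sets were called higher and 1.16% lower. Whether a lower signal on the C24-LUC array means less RNA was not tested.

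The genes whose pattern was most like that of each chosen gene were taken as the 5 with the highest Pearson r of log2 signal over the 7 arrays, among 8519 other tested probe sets with 1 gene. For AT5G38890 these were AT1G77550 (r = 0.994), AT3G26782 (0.992), AT3G47530 (0.991), AT5G40530 (0.989) and AT1G28395 (0.988). For AT2G39260 they were AT5G64670 (r = 0.996), AT4G11120 (0.985), AT1G35780 (0.984), AT3G12050 (0.982) and AT5G57080 (0.979). The points share the split between sta1 and wild type, which raises r for any gene that follows it. The order among the highest r also depends on the scatter within the groups. In each named gene Col-LUC 1, of the same chip lot as sta1, was the highest wild-type array, as in both chosen genes. AT5G64670 had signals of 706.1, 602.9, 566.0 and 584.2 on Col-LUC 1 to 4, 616.4 on C24-LUC, and 757.6 and 795.6 in sta1, the same order of Col-LUC arrays as AT2G39260. AT1G77550 had signals of 349.4, 305.2, 343.6 and 308.2 on Col-LUC 1 to 4, 288.0 on C24-LUC, and 467.3 and 584.7 in sta1, with sta1 2 above sta1 1 as in AT5G38890.

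Each chosen gene correlated with the other at r = 0.903 over the 7 arrays, which placed AT5G38890 198th in likeness to AT2G39260. Among the exosome core genes the r with AT5G38890 was 0.930 for AT3G07750, 0.928 for AT3G46210, 0.918 for AT2G25355, 0.895 for RRP41, 0.796 for AT1G60080 and 0.722 for RRP41L. With AT2G39260 the same genes had r of 0.865, 0.833, 0.812, 0.717, 0.661 and 0.561, each lower than with AT5G38890. These are descriptions over 7 arrays, with no test.

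Among genes that flank the chosen loci in the TAIR10.1 reference, 4 were tested in the sta1 comparison and 0 passed limma. Only SNZ had an unadjusted p under 0.05, with a negative difference, as had 11.9% of all tested probe sets. Of the 3 reference genes on each side of AT2G39260, SNZ, which encodes a regulator of flowering of the AP2 family, had a difference of -1.22 ± 0.50 (limma adjusted p = 0.190) and AT2G39280 of 0.19 ± 0.15. Beside AT5G38890, AT5G38895 had 0.09 ± 0.23 and AT5G38900 had 0.47 ± 0.56. The other 8 flanking genes had no tested probe set of their own.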

How the data were processed

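Groups and replicate numbers of the 7 arrays were taken from the sample titles. Per the labels, MAS5 gave 1 signal intensity for each probe set, with global scaling of arrays by the authors to 500; its version is not given in these sources. These deposited intensity values were floored at 50 and converted to log2. Without the 64 controls there were 22746 probe sets of plant genes, and the 15673 (68.9%) that reached 100 on 2 or more arrays were tested. Both chosen genes passed on every array.

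Differences were estimated with lmFit and a trended eBayes of limma 3.58.1 under R 4.3.3, with Benjamini-Hochberg adjustment over all tested probe sets and a threshold of 0.05. The sta1 comparison used 2 sta1 and 5 wild-type arrays, and the strain comparison used a fit of 3 groups. Precision is limited by the number of arrays. The fits were checked on simulated data with independent noise on each array. Those data held no effect of chip lot or session, so the check does not bear on either. Of the plant probe sets 13513 had 1 gene in the platform annotation, 503 had several and 8730 had none listed, and 13436 matched a gene of the TAIR10.1 reference table by gene ID. Chip lots and sessions came from the file headers. The genes and lists were chosen with earlier results of these data known. Named were both chosen genes, every list gene with a probe set of its own (the brightest where there were several) and the 5 most correlated genes. The flanking genes and the counts for the exosome core under other settings were added after the values had been seen. Other settings changed the filter, floor, scaling (quantile or median), trend, array weights, wild-type arrays and blocks (replicate number, chip lot), or left out each array. No gene or protein sequences were used here.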

Additional observations from a re-analysis of the deposited data

Results flagged for a closer look

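Among the 44 RNA decay and decay-sensitive genes with a probe set, 5 had a Col-LUC array that stood apart from the other 3 on the log2 scale by Dixon's test, where chance gives about 1 in 20, or 2.20. In RRP41L (AT4G27490) Col-LUC 2 was low, at a signal of 117.0 against 187.7 to 200.5. In AT5G53770 Col-LUC 3 was at 100.9 while the other Col-LUC arrays lay under the floor of 50. These were set to the floor before the test, so that the flooring alone makes Col-LUC 3 stand apart. Nothing is read from this gene, although it is counted among the 5. RST1 (AT3G27670) was lower on Col-LUC 4, at 256.2 against 297.3 to 304.2, and AT5G44150 too, at 72.4 against 127.6 to 138.5. AT5G12980 was higher on Col-LUC 3, at 201.5 against 159.8 to 164.9. Neither AT2G39260 nor AT5G38890 had such an array.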

How the results depend on the processing

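The difference between sta1 and wild type ran from 0.40 to 0.98 for AT5G38890 and from 0.12 to 0.42 for AT2G39260 under all 18 alternatives. In both genes the sta1 arrays lay above every wild-type array. Only quantile and median scaling could therefore have changed the sign, and nothing is read from its being positive throughout. The difference moved by more than the spread between replicates (SD of 0.18 and 0.12) with chip lot as a block, to 0.57 and 0.15, and within the shared session, to 0.40 and 0.12. Leaving out each array in turn gave 0.63 to 0.98 for AT5G38890 and 0.34 to 0.42 for AT2G39260. The median of the 6 other exosome core genes lay between 0.34, within the shared session, and 0.82. All 6 stayed above the wild type in each of the 13 settings in which this was counted. Only quantile and median scaling could have changed this. Leaving out arrays, or another floor or filter, cannot bring a sta1 array under the wild type in these genes. Nothing is read from those settings. By limma the count of other decay genes called was 0 in most settings. It was 6 higher and 2 lower with array weights, where 11.0% and 11.1% of all tested probe sets were called, and it ranged from 0 to 2 higher and from 0 to 1 lower when each array was left out, with the calls coming without Col-LUC 1. The cause was not tested. With the replicate number as a block the differences were 0.73 and 0.26, and limma called 0 decay genes. Same-numbered arrays correlated in their deviations at 0.192 and -0.007 over 2 pairs, which does not show that the numbers pair the samples, although Col-LUC 1 and sta1 1 also share a chip lot and session. No paired analysis was possible for C24-LUC, because its number occurs in no other group, and no other array is recorded in its lot. The strain difference of AT2G39260 ran from -0.079 to 0.034 when each array was left out, being positive only without Col-LUC 1 among its 13 settings, and by limma 0 of the other decay genes passed there in any of the 13. Of the 5 most similar genes by Pearson r, 3 for AT2G39260 and 0 for AT5G38890 were also among the top by Spearman's rho. Over 7 arrays rho is heavily tied, and the top 5 with ties held 32 and 11 genes. The 3 for AT2G39260 had a rho of 0.964. So had AT1G77550, AT3G26782, AT3G47530 and AT5G40530 with AT5G38890, but the 11 genes at its top had a higher rho. The count for AT2G39260 therefore rests on the ties, and that for AT5G38890 does not.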
